A study of Homo sapiens with 6 samples.

Results

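SPC24, SPC25, NDC80 and NUF2 encode the 4 subunits of the NDC80 complex. They were chosen as the subunits of 1 complex, and the complex was selected on measured values of these libraries, because SPC24 was among the genes with the largest falls in STIL-knockdown cells. The members are 4 of the 15953 genes measured, and their differences between the groups are given as a description with no test. RNA-seq was conducted in EJ cells, a human cell line established from bladder cancer. One group (shSTIL, 3 libraries) was infected with a lentivirus that knocks down STIL, a gene needed for centriole assembly, and the other (shNC, 3 libraries) with the negative control lentivirus. Both groups therefore carry a lentiviral vector. The hairpin in shSTIL, the number of hairpins and the promoter that drives them are not given for this experiment in the sources used here. The labels name the groups shNC and shSTIL, whereas headings in the deposited tables name them siNC and siSTIL. The labels do not say whether the 3 libraries of a group come from separate cultures, so P-values measure the spread between these libraries, which may be technical.

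The NDC80 complex is the part of the outer kinetochore that binds spindle microtubules in mitosis. It is built from a pair of dimers joined end to end. NDC80 and NUF2 form the dimer whose globular ends face the microtubule, and SPC24 and SPC25 form the dimer that faces the chromosome and docks onto the MIS12 complex and CENP-T. The complex is needed for chromosome alignment and for the spindle checkpoint, and its genes are known to be expressed mainly in dividing cells.

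The 4 genes lie on different chromosomes. In the GENCODE annotation of GRCh38, the main transcript of SPC24 has 5 exons on the minus strand of chromosome 19, from 11145494 to 11155808. The main transcript of SPC25 has 7 exons on the minus strand of chromosome 2, from 168870894 to 168890445. The main transcript of NDC80 has 17 exons on the plus strand of chromosome 18, from 2571511 to 2616635. The main transcript of NUF2 has 14 exons on the plus strand of chromosome 1, from 163321954 to 163355764.

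The promoter windows are shown because the 4 genes differed widely between the groups, so that the start regions of the most and the least affected subunits can be compared. All 4 members matched the RefSeq promoter table (GRCh38.p14). Each window runs 5′ to 3′ on the strand of the gene, from 250 bases before the RefSeq gene start to 50 bases from it, with the first base of the gene counted as 1 and no position 0. The windows are chr19:11155733-11156032 on the minus strand for SPC24, chr2:168890381-168890680 on the minus strand for SPC25, chr18:2571307-2571606 on the plus strand for NDC80 and chr1:163321704-163322003 on the plus strand for NUF2. Capitals mark each match, on either strand, to the letters TTTGAA (the core of the cell cycle homology region, CHR), TTCGAA (a variant of it) and CCAAT (the CCAAT box, which NF-Y binds). In NDC80 a match to TTTGAA and a match to TTCGAA lie side by side, and no matches overlap.
SPC24: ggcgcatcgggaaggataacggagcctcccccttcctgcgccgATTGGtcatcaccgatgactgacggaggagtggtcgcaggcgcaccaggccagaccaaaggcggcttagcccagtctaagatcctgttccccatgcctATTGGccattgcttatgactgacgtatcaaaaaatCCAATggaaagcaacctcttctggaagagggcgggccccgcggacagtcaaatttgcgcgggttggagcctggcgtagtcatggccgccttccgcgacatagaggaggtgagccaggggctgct
SPC25: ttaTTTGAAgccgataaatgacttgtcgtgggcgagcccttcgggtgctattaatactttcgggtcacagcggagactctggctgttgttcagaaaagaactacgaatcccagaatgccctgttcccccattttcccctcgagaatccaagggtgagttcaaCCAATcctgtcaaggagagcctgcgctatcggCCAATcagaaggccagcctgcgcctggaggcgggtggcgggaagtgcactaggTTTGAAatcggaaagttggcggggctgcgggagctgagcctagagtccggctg
NDC80: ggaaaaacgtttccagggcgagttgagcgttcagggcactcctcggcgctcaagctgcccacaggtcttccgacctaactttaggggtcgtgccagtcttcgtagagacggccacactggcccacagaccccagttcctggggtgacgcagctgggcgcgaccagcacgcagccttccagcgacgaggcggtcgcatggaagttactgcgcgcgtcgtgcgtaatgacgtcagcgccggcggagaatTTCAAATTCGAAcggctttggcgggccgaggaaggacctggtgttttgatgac
NUF2: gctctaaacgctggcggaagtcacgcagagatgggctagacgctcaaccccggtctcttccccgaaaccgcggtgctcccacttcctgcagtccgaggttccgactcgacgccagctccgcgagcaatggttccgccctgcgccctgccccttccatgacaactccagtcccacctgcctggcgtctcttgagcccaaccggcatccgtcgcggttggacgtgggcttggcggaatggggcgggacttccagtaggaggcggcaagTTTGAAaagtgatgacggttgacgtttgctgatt

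CHR elements and CCAAT boxes are known from promoters of genes expressed in G2 and M phase. TTTGAA was in the windows of SPC25 (positions -247 to -242 and -3 to 3), NDC80 (-3 to 3, as TTCAAA on the printed strand) and NUF2 (17 to 22), and no match was in the window of SPC24. CCAAT was found 3 times in SPC24 (first bases at -207, -109 and -74) and 2 times in SPC25 (-88 and -56), and no match was in the windows of NDC80 and NUF2. By these letters the chromosome-facing pair held CCAAT and the microtubule-facing pair did not. With only 4 windows, nothing is read from this split. TTCGAA was found at 4 to 9 in NDC80 and in none of the other 3 windows. Of 35116 RefSeq promoter windows of the same length, 15.2% hold TTTGAA, 1.45% hold TTCGAA and 34.6% hold CCAAT on either strand. The E2F letters TTTCCCGC, TTTCGCGC, TTTGCCGC and TTTGGCGC were in none of the 4 windows, and 3.31% of all windows hold at least 1 of them. A match describes letters and not a bound site, and no match says only that these letters are not in this window.

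The 6 libraries were similar in depth, with 16214772 to 16431243 reads in shNC and 16734469 to 16901634 reads in shSTIL. STIL, the targeted gene, was first checked in every library. Its log2 CPM (the log2 of reads scaled by library size, CPM) was 5.98, 6.10 and 6.01 in shNC and 4.05, 4.06 and 4.01 in shSTIL. STIL fell in 3 of 3 shSTIL libraries, by a log2 fold change of -1.99 (SE 0.052, limma adjusted P-value = 6.1e-12), which left 25.0% of the control level. The exact two-sided permutation test gave a P-value of 0.1, the smallest that 3 libraries against 3 allow. The label of the cell line was compared with cell type markers. The keratins KRT8 (224 to 386 CPM), KRT18 (607 to 659 CPM) and KRT7 (82.5 to 130 CPM) were present. CDH1 (0 to 0.184 CPM) and the urothelial markers UPK2 (0 to 0.312 CPM), KRT20 (0 to 0.0623 CPM), KRT5 (0 to 0.0584 CPM) and GATA3 (0.234 to 0.566 CPM) were at or near 0 in every library. Of the other urothelial markers measured, PPARG was present (18.5 to 23.9 CPM), while UPK1A (1.12 to 2.06 CPM) and UPK1B (0.292 to 1.25 CPM) were low, as was the epithelial marker EPCAM (0.872 to 1.23 CPM). Some markers differed between the groups. KRT8 was lower (log2 fold change -0.70, limma adjusted P-value = 1.1e-09) and KRT7 higher (0.49, limma adjusted P-value = 2.0e-06) in shSTIL. PPARG was higher (log2 fold change 0.26, limma adjusted P-value = 0.0046) and UPK1B lower (-1.12, limma adjusted P-value = 0.0035) in shSTIL. The endothelial markers PECAM1, CDH5 and VWF did not exceed 0.643 CPM in any library, and KRT19, UPK3A and the blood markers were not analysed here.

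SPC24, a subunit of the dimer that docks the complex onto its receptors at the centromere, had the lowest level left of the 4 subunits. Its log2 CPM was 5.22, 5.29 and 5.30 in shNC replicates 1, 2 and 3, and 2.26, 2.18 and 1.96 in shSTIL replicates 1, 2 and 3. The groups did not overlap, and the lowest shNC library lay 2.96 log2 units above the highest shSTIL library. The reads behind these values were 595, 635 and 625 in shNC and 80.0, 76.0 and 64.0 in shSTIL. The mean log2 CPM was 5.27 ± 0.044 (SD, n = 3) in shNC and 2.13 ± 0.156 (SD, n = 3) in shSTIL. The log2 fold change was -3.13 (SE 0.093), and 11.2% of the control CPM was left. Counting error alone would give an SD of 0.058 in shNC and 0.169 in shSTIL on this scale, so the spread between libraries was no larger than counting error in either group. This error covers counting only, since the reads carry no molecular identifiers.

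SPC25 is the partner of SPC24 in the dimer. Its log2 CPM was 5.66, 5.65 and 5.66 in shNC and 4.07, 4.13 and 4.03 in shSTIL. The shNC libraries were nearly equal, and the groups lay 1.51 log2 units apart without overlap. The mean log2 CPM was 5.65 ± 0.0074 (SD, n = 3) in shNC and 4.08 ± 0.052 (SD, n = 3) in shSTIL. The log2 fold change was -1.58 (SE 0.053), and 33.4% of the control CPM was left. SPC25 reads, and some of SPC24, were fractional estimates (for SPC25, about 809, 814 and 801 reads in shNC and 285, 300 and 276 in shSTIL). Such fractions can arise where a read is shared between genes, and which genes share these reads was not examined.

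NDC80 carries the main microtubule-binding domain of the complex. Its log2 CPM was 6.08, 6.17 and 6.10 in shNC and 5.53, 5.57 and 5.59 in shSTIL. The groups did not overlap and were 0.49 log2 units apart at their nearest libraries. The mean log2 CPM was 6.12 ± 0.045 (SD, n = 3) in shNC and 5.56 ± 0.034 (SD, n = 3) in shSTIL. The log2 fold change was -0.55 (SE 0.042), and 68.1% of the control CPM was left, from 1085 to 1169 reads in shNC and 786 to 817 in shSTIL.

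NUF2, the partner of NDC80, differed least. Its log2 CPM was 5.57, 5.65 and 5.64 in shNC and 5.40, 5.45 and 5.41 in shSTIL. The groups again did not overlap, but the nearest libraries were only 0.12 log2 units apart. The mean log2 CPM was 5.62 ± 0.043 (SD, n = 3) in shNC and 5.42 ± 0.028 (SD, n = 3) in shSTIL. The log2 fold change was -0.20 (SE 0.044), and 86.9% of the control CPM was left. In bulk samples such as these, fewer cells that express a gene and less RNA of that gene per cell cannot be told apart.

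**Figure D1:**
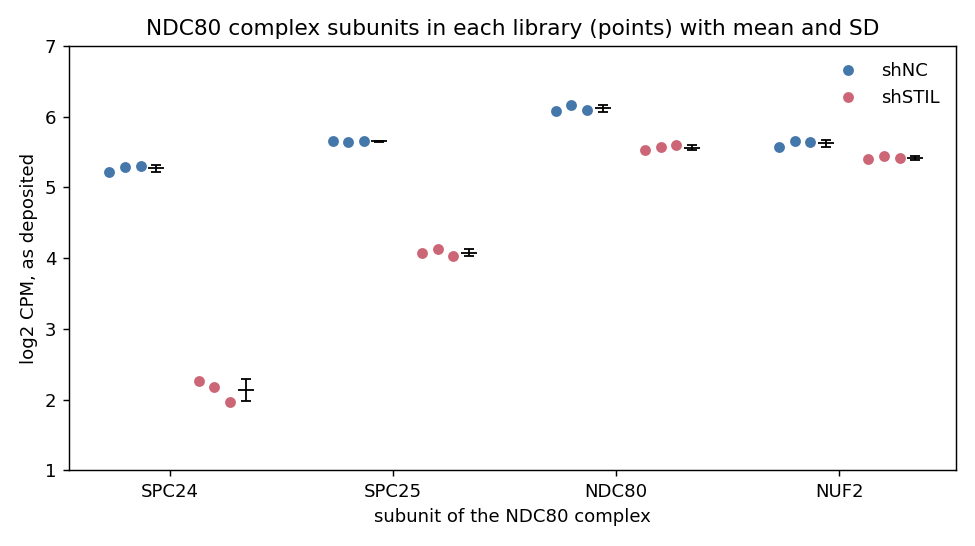
Deposited log2 CPM (y axis) of the 4 subunits (x axis) in each library, with shNC in blue and shSTIL in red. Each point is 1 library, and the black marks are the mean and SD of 3 libraries. The gap between the groups narrows from SPC24 (means 5.27 and 2.13) to NUF2 (means 5.62 and 5.42).

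All 4 subunits had every shSTIL value below every shNC value, a pattern that 30.5% of all 15953 genes showed. The limma adjusted P-value was under 0.01, the threshold for a DEG, for 47.1% of all genes. Of all genes, 23.6% were lower and 23.5% were higher in shSTIL. Since the members were selected on this contrast, nothing is read from their own counts against these shares. The members were spread over the falling side of all genes. Among the 11319 genes whose mean log2 CPM was 1 or more, SPC24 had the 3rd largest fall and SPC25 the 65th, while NDC80 was at rank 1387 and NUF2 at rank 3713. Of these genes, 0.574% fell at least as much as SPC25, 12.3% at least as much as NDC80 and 32.8% at least as much as NUF2. Just above SPC24 in that order were ATP6V1G1 (log2 fold change -3.34) and GAL3ST1 (-3.23), and just below it were CNIH2 (-2.82), CORO1A (-2.81) and CCNE2 (-2.80). The median log2 fold change of the 11319 genes was -0.0070 and their median absolute log2 fold change was 0.29.

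**Figure D2:**
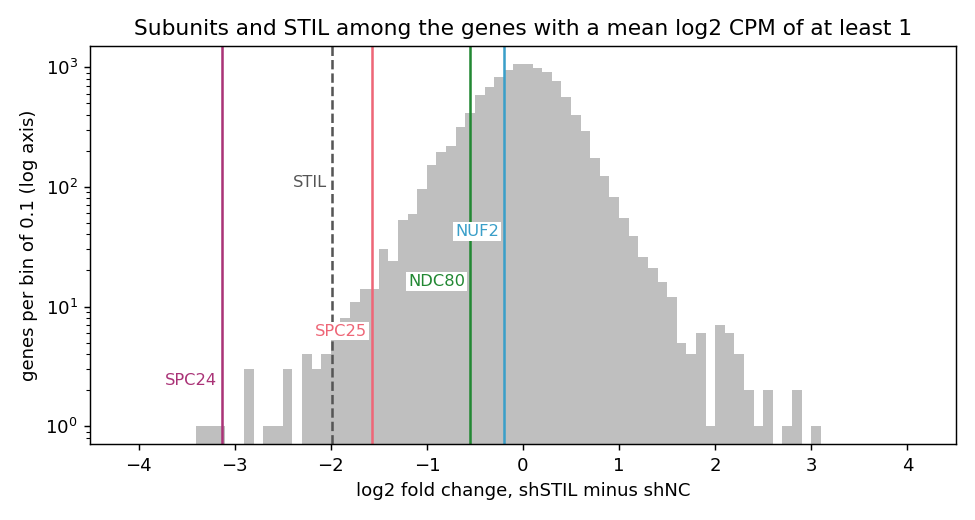
Histogram of the log2 fold change of shSTIL against shNC (x axis) for the 11319 genes whose mean log2 CPM was 1 or more, in bins of 0.1 on a log count axis. The lines mark the 4 subunits and, dashed, STIL. SPC24 (-3.13) stands at the far left edge and NUF2 (-0.20) lies within the bulk of the genes.

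The RNA ratio between the gene pairs of the dimers was lower in STIL-knockdown cells. No protein or dimer was measured. SPC24 was selected for its fall, so the ratios that hold it are a description only. The CPM of SPC24 and SPC25 together, divided by that of NDC80 and NUF2, was -0.40, -0.46 and -0.40 on the log2 scale in shNC and -2.04, -2.06 and -2.18 in shSTIL. Every shSTIL library was lower than every shNC library, with means of -0.42 ± 0.035 and -2.09 ± 0.075 (SD, n = 3 each). The RNA ratio within each gene pair moved as well. The log2 ratio of SPC24 to SPC25 was -0.39 ± 0.049 in shNC and -1.97 ± 0.136 in shSTIL (SD, n = 3 each), a shift of the SPC24 to SPC25 ratio that was wider than the shift of NDC80 to NUF2. The log2 ratio of NDC80 to NUF2 was 0.50 ± 0.029 in shNC and 0.14 ± 0.033 in shSTIL (SD, n = 3 each). The summed CPM of the 4 genes was 207 ± 4.14 in shNC and 111 ± 1.78 in shSTIL (SD, n = 3 each). Of that sum, SPC24 made up 18.6% ± 0.316 in shNC and 3.87% ± 0.436 in shSTIL (SD, n = 3 each). NUF2 made up 23.7% of the sum in shNC and 38.5% in shSTIL, the largest increase in share of the 4.

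**Figure D3:**
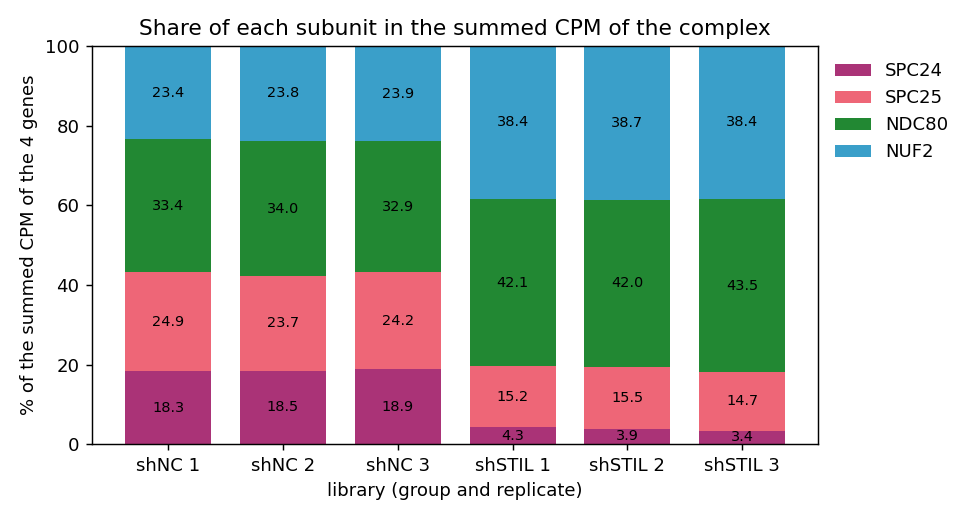
Share of each subunit, in percent, of the summed CPM of the 4 genes (y axis) in each library (x axis), as stacked bars from 0 to 100%. The share of SPC24 is 18.3% to 18.9% in the shNC libraries and 3.41% to 4.28% in the shSTIL libraries.

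CPM does not allow levels to be compared between genes of different length, so the levels were also divided by transcript length. With the main transcript of each gene (2315 bases for SPC24, 1354 for SPC25, 2172 for NDC80 and 1969 for NUF2), the CPM per kilobase in shNC was highest for SPC25 (37.1 ± 0.190) and lower in turn for NDC80 (31.9 ± 0.996), NUF2 (24.9 ± 0.747) and SPC24 (16.6 ± 0.509). No neighbours in that order overlapped between libraries. In shSTIL the CPM per kilobase was 21.7 ± 0.508 for NDC80, 21.7 ± 0.424 for NUF2, 12.4 ± 0.448 for SPC25 and 1.85 ± 0.201 for SPC24 (SD, n = 3 for each). NDC80 and NUF2 overlapped between libraries there, so their order in shSTIL was not resolved. SPC24 was the least abundant subunit in both groups on this scale.

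The place of SPC24 in the control cells depended on the length used. SPC24 has 6 annotated coding transcripts of 378 to 2315 bases, and the coding part of the main transcript has 591 bases, against 672 in SPC25, 1926 in NDC80 and 1392 in NUF2. Per kilobase of coding length, SPC24 (65.0 ± 1.99 CPM per kilobase) was second to SPC25 (74.7 ± 0.382) in shNC, above NDC80 (35.9 ± 1.12) and NUF2 (35.3 ± 1.06), which overlapped between libraries. Of the summed level per kilobase in shNC, SPC24 accordingly made up 15.0% with the transcript length and 30.8% with the coding length. In shSTIL SPC24 was the lowest with either length, at 7.26 ± 0.787 CPM per kilobase of coding length. NUF2 (30.7 ± 0.600) was then the highest, and SPC25 (25.0 ± 0.902) and NDC80 (24.5 ± 0.573) overlapped between libraries (SD, n = 3 for each).

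The proteins that the complex works with were examined next, in 8 lists with 57 genes in all. Of the 57 partner genes, 39 fell (68.4%), 4 rose (7.02%) and 14 did not pass the threshold, with a median log2 fold change of -0.32. For comparison, 31.4% of the 11319 genes whose mean log2 CPM was 1 or more fell and 30.5% rose, and all 57 partners lay above that minimum. The partner genes ranged from -1.45 to 0.32, so 0 of the 57 fell as much as SPC25 or SPC24. Only 0.574% of the 11319 genes fell at least as much as SPC25, and SPC24 was the basis of the selection. Nothing is therefore read from this count of 0. All partner P-values are limma P-values adjusted over all 15953 genes. A limit of these counts is the number of libraries. When 1 library was left out, 27 to 34 partners were lower and 1 or 2 higher, with the fewest lower (27) without shSTIL replicate 3. Of the 39 calls of a fall 26 held whichever library was left out, and of the 4 calls of a rise 1 did.

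The MIS12 complex, onto which the SPC24 and SPC25 dimer docks, moved in both directions. DSN1, the MIS12 complex subunit whose phosphorylation is known to open the complex for the inner centromere, had a log2 CPM of 6.02, 6.14 and 6.09 in shNC and 5.19, 5.26 and 5.10 in shSTIL. It fell by 0.90 on the log2 scale (SE 0.051, adjusted P-value = 6.5e-09). MIS12 itself rose, with a log2 fold change of 0.24 (SE 0.046, adjusted P-value = 5.8e-04). Of the 4 MIS12 complex genes 2 fell, 1 rose and NSL1 (log2 fold change -0.19, adjusted P-value = 0.021) did not pass, for a list median of -0.32. In the KNL1 complex, which recruits checkpoint proteins, both genes fell. ZWINT, at a log2 CPM of 6.88 ± 0.071 in shNC and 5.43 ± 0.025 in shSTIL (SD, n = 3 each), had the largest fall of the 57 partners (log2 fold change -1.45, SE 0.043, adjusted P-value = 1.7e-11). KNL1, the scaffold of that complex, had a log2 fold change of -0.66 (SE 0.056, adjusted P-value = 2.8e-07).

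CENP-T and CENP-C are the inner centromere proteins from which the NDC80 complex is recruited, CENP-T directly and CENP-C through the MIS12 complex. In this list 4 of 5 genes fell, with a median log2 fold change of -0.65. That median is the value of CENPS (limma adjusted P-value = 0.0028), whose call was lost without any 1 of the 6 libraries, after quantile normalization and without the mean-variance trend, and the other 3 calls held without any 1 library. A separate entry, CENPS-CORT, is not in the list and had a mean log2 CPM of 2.51 over all libraries, against 2.57 for CENPS. It did not fall (log2 fold change 0.22, limma adjusted P-value = 0.17). How reads were divided between these entries was not tested, so the median rests on an uncertain value. CENPT had a log2 fold change of -0.45 (SE 0.058, adjusted P-value = 1.7e-05), and the histone-fold gene CENPX had the largest fall of the list at -0.76 (adjusted P-value = 5.8e-08). CENPC did not pass the threshold, with a log2 fold change of -0.19 (SE 0.061, adjusted P-value = 0.015) and values of 4.58, 4.58 and 4.51 in shNC and 4.34, 4.41 and 4.34 in shSTIL. Of the 11 other genes of the constitutive centromere network 6 fell, 1 rose and 4 did not pass, with a median of -0.22. CENPH had the largest fall (-1.02, adjusted P-value = 8.8e-10). CENPL was the gene that rose (0.32, adjusted P-value = 0.0030), a call that was lost without any 1 of the 6 libraries. Of the 5 genes of the centromeric nucleosome and its loading 4 fell, with a median of -0.37, led by the CENP-A chaperone HJURP (-0.54, adjusted P-value = 3.8e-09).

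On the microtubule side are the SKA complex and other partners that help NDC80 hold microtubules. Of 6 genes 2 fell (33.3%) and 4 did not pass, with a median log2 fold change of -0.03. The share that fell is near the 31.4% of the 11319 genes whose mean log2 CPM was 1 or more, so nothing is read from it. CDT1, which is known for replication licensing and also binds the NDC80 complex in mitosis, had the largest fall of this list (-0.94, adjusted P-value = 8.2e-10). The difference between the lists was not tested.

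Of the 12 spindle checkpoint and RZZ genes, 10 fell and 0 rose, with a median log2 fold change of -0.37. SPDL1, which brings dynein to the kinetochore, had the largest fall (-1.29, adjusted P-value = 3.4e-10). The checkpoint kinase TTK, which binds the NDC80 complex, changed by -0.17 on the log2 scale (adjusted P-value = 0.0059), and its call was lost without any 1 of the 6 libraries and after quantile normalization (adjusted P-values of 0.0018 to 0.097 over the alternatives). The list of kinases and phosphatase subunits that act on NDC80 also holds subunits and activators of the kinases that are not kinases themselves. Of its 12 genes, 9 fell and 2 rose, with a median of -0.24. Its largest falls were in such genes, namely INCENP, CCNB1 (-0.64) and TPX2 (-0.57). INCENP, the scaffold of the Aurora B kinase complex, had the largest fall (-0.66, adjusted P-value = 8.2e-08). AURKB, the kinase that phosphorylates the NDC80 tail, changed by -0.22 on the log2 scale (adjusted P-value = 4.4e-04), a call that held in only 1 of 6 tests with a library left out. The phosphatase subunits PPP1CC (0.25, adjusted P-value = 1.3e-04) and PPP2R5A (0.19, adjusted P-value = 0.0033) rose. The call of PPP1CC held in 2 of 6 tests with a library left out and that of PPP2R5A in 0 of 6. Without the mean-variance trend the calls of TTK, AURKB, PPP1CC and PPP2R5A were lost as well.

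**Figure D4:**
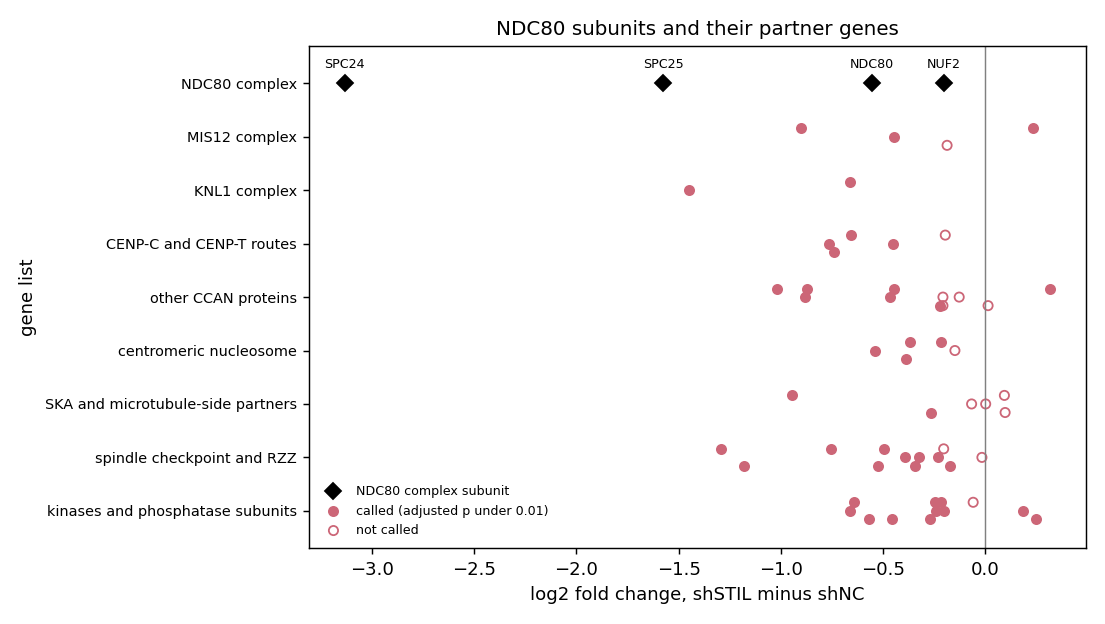
Log2 fold change of shSTIL against shNC (x axis) of the 4 subunits (black diamonds) and of the 57 partner genes in 8 lists (y axis). Filled circles passed a limma adjusted P-value under 0.01 and open circles did not. The partners lie between -1.45 and 0.32, to the right of SPC25 (-1.58) and SPC24 (-3.13).

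Genes of the cell cycle moved with the subunits. The shares to set beside these counts are again 31.4% lower and 30.5% higher, among the 11319 genes whose mean log2 CPM was 1 or more. Of 43 S phase genes 40 fell (93.0%), 1 rose and 2 did not pass, with a median log2 fold change of -0.95. Their summed CPM was 4584 in shNC and 2213 in shSTIL. The cyclin gene CCNE2 (-2.80, limma adjusted P-value = 1.7e-09) had the largest fall of this list and MRPL36 (0.26, adjusted P-value = 0.0037) its 1 rise, which was lost without any 1 of the 6 libraries, without the mean-variance trend and with a replicate block. In the list of S phase genes 6 fell at least as much as SPC25 and 0 as much as SPC24. Of the 11319 genes whose mean log2 CPM was 1 or more, 0.574% fell at least as much as SPC25. Of 52 G2 and M phase genes, counted without NDC80 and NUF2, 37 fell (71.2%), 3 rose and 12 did not pass, with a median of -0.34 and summed CPM of 9774 in shNC and 7166 in shSTIL. The microtubule-associated gene NUSAP1 had the largest fall of that list (-1.28, adjusted P-value = 5.7e-12) and RANGAP1 the largest rise (0.58, adjusted P-value = 1.8e-09). Of the 52 genes 0 fell as much as SPC25, which is near the 0.574% of the 11319 genes. The partner lists share 13 genes with the G2 and M phase list and 1 with the S phase list. Among the 43 partners in neither, 28 fell (65.1%) and 4 rose, with a median of -0.37. These 43 still include cell cycle genes that the lists leave out, such as CDT1. The split therefore cannot separate the partners from the cell cycle. The part of the cell cycle genes in the differences of the 4 subunits was not tested.

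The chromosomal neighbours of each subunit were examined as up to 3 measured genes on either side in RefSeq gene order. Of the 23 genes reported, 7 fell, 6 rose and 10 did not pass, against 47.1% of all genes called in either direction. Without shNC replicate 3, shSTIL replicate 1 or shSTIL replicate 3 the calls among these neighbours dropped from 13 to 8, and the DEGs of all genes dropped from 7509 to 4900 without shSTIL replicate 3. Beside SPC24, 4 of 5 genes fell and 1 rose. KANK2, a gene for an adhesion-linked scaffold protein, lies 8.49 kb from SPC24 and had a log2 CPM of 6.78, 6.77 and 6.79 in shNC and 5.33, 5.34 and 5.37 in shSTIL. Its log2 fold change was -1.43 (SE 0.037, limma adjusted P-value = 5.7e-12), and its call held in 6 of 6 tests with a library left out. On the other side, SMARCA4, the ATPase of the BAF chromatin remodeller, fell by 0.73 on the log2 scale (adjusted P-value = 1.5e-07). TIMM29 (-0.51, adjusted P-value = 0.0014) and DOCK6 (-0.40, adjusted P-value = 1.1e-04) also fell, but their calls held in only 1 of 6 and 0 of 6 tests with a library left out, and neither held without the mean-variance trend. ANGPTL8, the gene that rose (adjusted P-value = 3.6e-06), had 0 reads in each shNC library and 7 to 10 reads in the shSTIL libraries, and no fold is given for it.

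The neighbours of the other 3 subunits moved in mixed directions or did not pass. Beside SPC25, 0 genes fell, 1 rose and 5 did not pass. NOSTRIN overlaps the RefSeq gene span of SPC25 on the opposite strand, though not the main SPC25 transcript given above, and had only 0 to 6 reads in any library, against 276 or more for SPC25. Beside NDC80, 0 fell and 3 rose. The calls of YES1 (log2 fold change 0.24) and LPIN2 (0.24) each held in only 1 of 6 tests with a library left out. Both were lost without the mean-variance trend, while the call of METTL4 held in 6 of 6 tests. METTL4 lies on the opposite strand, 52 bases from NDC80 in RefSeq, and rose by 0.54 on the log2 scale (limma adjusted P-value = 1.0e-05), whereas NDC80 was at -0.55. Beside NUF2, 3 fell and 1 rose. RGS5, on the opposite strand 219 bases from NUF2, rose from 24 to 33 reads in shNC to 45 to 56 reads in shSTIL (log2 fold change 0.74, adjusted P-value = 0.0041), a call that held in 1 of 6 tests with a library left out and was lost with DESeq2. METTL4 and RGS5 are named because they lie nearest to a subunit and were chosen after their values were seen. It is not given in the sources used here whether strand was used in counting, and without strand the reads of overlapping genes cannot be told apart.

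**Figure D5:**
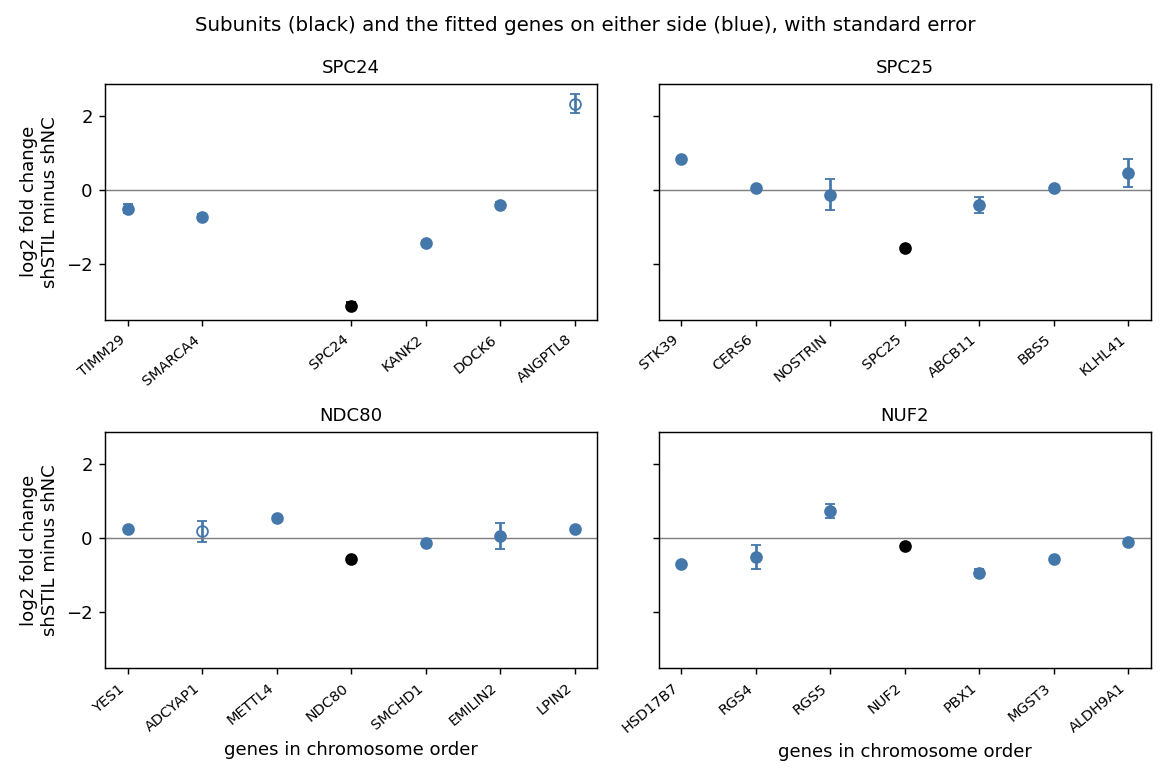
Log2 fold change of shSTIL against shNC with its standard error (y axis) for each subunit (black) and up to 3 measured genes on each side (blue) in chromosome order (x axis), 1 panel per subunit. Open circles are genes with 0 reads in every shNC library. KANK2 (-1.43) is the lowest of the 23 neighbours, beside SPC24 (-3.13), and METTL4 (0.54) lies above 0 beside NDC80 (-0.55).

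The genes whose profile over the 6 libraries was most like that of SPC24 were found by Euclidean distance between log2 CPM values, each taken relative to the shNC mean of the gene, over the same 11319 genes. The nearest 5 were ATP6V1G1 (distance 0.488), GAL3ST1 (0.511), CCNE2 (0.648), CORO1A (0.691) and CNIH2 (0.710). ATP6V1G1 encodes a subunit of the vacuolar proton pump, GAL3ST1 a sulfotransferase of sphingolipids and CCNE2 the cyclin E2 of S phase entry. CORO1A encodes an actin-binding protein and CNIH2 an auxiliary subunit of glutamate receptors. None of the 5 encodes a kinetochore protein. ATP6V1G1 had a log2 CPM of 6.41, 6.38 and 6.47 in shNC and 3.04, 3.03 and 3.16 in shSTIL, and CNIH2, the farthest of the 5, had 2.79, 2.67 and 2.65 in shNC and -0.28, 0.22 and -0.27 in shSTIL. Among 11318 genes STIL ranked 21 by this distance and SPC25 ranked 64, ahead of NDC80 (1380) and NUF2 (3692). The distance was dominated by the size of the difference between the groups and says nothing of shared control.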

How the data were processed

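The 6 RNA-seq libraries of EJ cells were grouped by the sample labels into 2 groups. The authors sequenced on the BGISEQ-500, mapped with Bowtie2 and quantified genes with RSEM, on hg38 per the labels. Versions are not given in the sources used here. The deposited log2 CPM tables cover 15953 genes in all 6 libraries, and the deposited estimated counts, without normalization, cover 4 libraries and 15957 genes. The authors' log2 CPM values match edgeR's with TMM scaling and a prior count of 2, as inferred here from their spacing, so log2 fold changes of genes near the floor are understated. Reads were recovered from the log2 CPM (87.4% to 87.8% of values whole within 0.01 read, the rest fractional RSEM estimates) and lay within 0.000294 of the deposited counts. No per-sample columns went unused.

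The log2 CPM of all genes was fitted with limma 3.58.1 (R 4.3.3, mean-variance trend, no replicate block) with Benjamini-Hochberg adjustment over all genes, and a gene was called at an adjusted p under 0.01. STIL was also compared with an exact permutation test over 20 labellings. edgeR 4.0.16 and DESeq2 1.42.0 were run as alternatives on recovered reads rounded to whole numbers. The fits were tested on simulated data. Same-numbered libraries did not deviate together (correlations of -0.12, -0.055 and -0.11), so the numbers were not used as pairs.

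The members and lists were chosen with earlier results of these data known. The genes named are the members, STIL, the largest fall and rise called in each partner list, DSN1, MIS12, CENPT, CENPC, KNL1, AURKB and TTK, the neighbours of SPC24, the 5 nearest profiles and at most a pair per cell cycle list. NSL1, CENPS, CENPS-CORT, CCNB1, TPX2, NOSTRIN, METTL4, YES1, LPIN2, RGS5 and PPP2R5A are named as well and were chosen after their values were seen. Lengths and exons come from GENCODE 29, and gene order (98.4% of symbols matched) and promoters from RefSeq GRCh38.p14. A gene beside a member is not reported here.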

Additional observations from a re-analysis of the deposited data

How the results depend on the processing

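The log2 fold changes of the 4 subunits kept their direction and their order (SPC24, SPC25, NDC80, NUF2) in 16 of 16 settings, the main analysis included. Some settings could not change this. The replicate block, the fit without the mean-variance trend and the minimum mean log2 CPM leave each log2 fold change as it was. Median centring shifts all 4 alike, so it cannot change their order. The log2 fold changes ranged over the alternatives from -3.20 to -3.05 for SPC24, -1.60 to -1.55 for SPC25, -0.57 to -0.52 for NDC80 and -0.23 to -0.15 for NUF2. The value of NUF2 moved by more than 1 SD between replicates, to -0.15, with the deposited counts alone, which hold 1 shNC library. STIL ranged from -2.01 to -1.94. The DEGs numbered 7509 in the main analysis, 6898 with the replicate block and 4900 to 5638 with 1 library left out, the fewest (4900) without shSTIL replicate 3. With the replicate block 39 partners were lower, 4 higher and 13 neighbours called, as without it. With 1 library left out, 27 to 34 partners were lower and 1 to 2 higher (1 without shNC replicate 3 or any 1 shSTIL library), and 2 were higher without the mean-variance trend. Of the neighbours, 13 were called in the main analysis and 8 to 10 with 1 library left out (8 without shNC replicate 3, shSTIL replicate 1 or shSTIL replicate 3). Leaving out a library also leaves fewer samples to estimate the spread. The alternatives for the neighbours and for the calls of single genes were added after seeing the data. The share of SPC24 in the summed level per kilobase in shNC moved from 15.0% with the transcript length to 30.8% with the coding length. At 64.0 to 80.0 reads per shSTIL library, depth limits SPC24 more than the other subunits.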
